A study of Homo sapiens with 8 samples.

Results

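The SOX transcription factors were followed through 10 of their genes in oligodendrocyte progenitor cells (OPCs) grown on 3 coatings. Of the 10, 4 were called higher on both vitronectin-based coatings than on Matrigel (SOX4, SOX5, SOX9 and SOX11). The SOX11 calls were lost in some fits with a library left out. Of all tested genes, 5.66% were called higher on vitronectin and 7.44% on the peptide VNP2, and the share called on both was not counted. The 10 genes were taken by name, with earlier results of these data known (SOX1, SOX2, SOX3, SOX4, SOX5, SOX6, SOX8, SOX9, SOX11 and SOX21). All 10 passed the filter on low counts that left 18201 genes for testing. The OPCs were derived from the human embryonic stem cell line H9, which is an established line, and were held for 2 days on Matrigel, on recombinant vitronectin (VN) or on VNP2, a peptide designed from vitronectin and fused to a mussel adhesive protein. None of the cells had been given the SOX10 transgene that the study used elsewhere, so no group carried a forced SOX factor, and every library came from the same line. Polyadenylated RNA was sequenced, and the 8 libraries comprised replicates 2 and 3 for Matrigel, and replicates 1 to 3 for each of the other coatings. The comparisons asked which genes respond to the substrate, before any forced differentiation.

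SOX proteins bind DNA through a shared HMG box, which sits in the minor groove and bends the helix, and they act on most genes together with a partner factor bound next to them. In the neural lineage SOX1, SOX2 and SOX3 (the SOXB1 group) hold cells in a progenitor state, and SOX21 (SOXB2) is a repressor that opposes them. SOX4 and SOX11 (SOXC) act at the start of neuronal gene expression, SOX5 and SOX6 (SOXD) restrain the maturation of oligodendrocyte precursors and lack a transactivation domain of their own, and SOX8 and SOX9 (SOXE) take part, with SOX10, in the specification and differentiation of glia.

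The coding sequence of the box shows how near the members are to each other. The next lines give 60 bases, or 20 codons, of the best expressed coding transcript of each gene, read 5′ to 3′ on the coding strand from GENCODE v29 (GRCh38). Lower case marks bases equal to those of SOX2, and capitals mark bases that differ from it.
SOX2: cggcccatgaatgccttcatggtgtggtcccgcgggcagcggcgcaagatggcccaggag
SOX1: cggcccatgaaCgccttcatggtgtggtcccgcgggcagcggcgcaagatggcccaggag
SOX3: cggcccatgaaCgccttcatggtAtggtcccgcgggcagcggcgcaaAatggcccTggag
SOX21: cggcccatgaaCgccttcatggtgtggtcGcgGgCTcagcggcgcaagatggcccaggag
SOX4: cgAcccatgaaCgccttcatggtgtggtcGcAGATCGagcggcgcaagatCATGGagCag
SOX11: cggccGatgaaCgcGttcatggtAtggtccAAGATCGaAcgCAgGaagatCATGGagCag
SOX5: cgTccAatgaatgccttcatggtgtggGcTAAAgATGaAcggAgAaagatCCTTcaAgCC
SOX6: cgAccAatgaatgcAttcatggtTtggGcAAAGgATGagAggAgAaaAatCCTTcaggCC
SOX8: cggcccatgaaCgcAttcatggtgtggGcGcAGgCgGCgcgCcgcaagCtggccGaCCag
SOX9: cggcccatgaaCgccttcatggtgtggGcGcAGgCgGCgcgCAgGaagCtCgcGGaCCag

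SOX1 differed from SOX2 at 1 of the 60 bases, SOX3 at 4 and SOX21 at 5, whereas the other members differed at 14 to 22. Within the groups, 70 codons of the box were 91.4% identical in bases between SOX8 and SOX9, 88.6% between SOX4 and SOX11 and 81.9% between SOX5 and SOX6. Among the SOXB1 genes they were 93.3% identical between SOX1 and SOX2, 88.6% between SOX1 and SOX3 and 85.7% between SOX2 and SOX3. SOX21, of the SOXB2 group, was 90% identical to SOX1 and 89% to SOX2, so the box alone does not separate SOXB1 from SOXB2. The printed stretch lies at chr3:181712487-181712546 in SOX2, chr13:112067815-112067874 in SOX1, chrX:140504581-140504640 in SOX3 and chr13:94711963-94712022 in SOX21, each within a gene that consists of a single exon. It lies at chr6:21594715-21594774 in SOX4 and chr2:5692872-5692931 in SOX11, also single-exon genes. In SOX5 (chr12:23543251-23543310) it is in exon 13 of 15 of transcript SOX5-207, and in SOX6 (chr11:15989037-15989096) in exon 14 of 16 of SOX6-202. In SOX8 (chr16:982232-982291) and SOX9 (chr17:72121710-72121769) it is in the first of 3 exons. The likeness bears on the measurement, because a read that falls wholly in a shared stretch cannot be placed by itself. The study sequenced fragments from both ends, so a mate outside the stretch can still place such a read. The longest run of bases shared by coding transcripts of any 2 members was 89 bases, between SOX1 and SOX2, followed by 60 bases between SOX21 and each of SOX1 and SOX2, and it was 37 bases or fewer for every other pair. Fragments that neither end could place were divided by Salmon's model, and the read length is not given in the sources used here.

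The libraries held between 37997896 and 39429453 estimated counts. VN replicate 1 stood apart from the other VN libraries: the median chi-square per gene was 2.35 and 2.75 against them, but 0.781 between VN replicates 2 and 3, where sampling alone gives 0.455. To a lesser degree VNP2 replicate 2 stood apart too, with 1.16 and 1.19 against VNP2 replicates 1 and 3, and 0.763 between those. The study describes its experiments as repeated and its RNA samples as taken from different cells, but the sources used here do not tie the replicates of a coating to separate cultures, so the p-values measure only the spread between these libraries, which may be technical. In these bulk libraries, fewer cells of a type and less RNA per cell cannot be told apart. Of the OPC markers, OLIG1, OLIG2, NKX2-2, PDGFRA, CSPG4 and PTPRZ1 were expressed on every substrate, whereas SOX10, the SOXE factor that defines the oligodendrocyte lineage, was barely detected. SOX10 had 0 counts in both Matrigel libraries, 2, 4 and 3 counts on VN and 5, 2 and 4 counts on VNP2, too few for testing and near the limit of 3 counts that a library with 0 counts allows. The SOXE group was thus carried in these cells by SOX9 and, at a lower level, SOX8.

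Expression levels are compared between genes in TPM, a unit scaled to the library total that also corrects for transcript length. SOX2 was the most abundant member, with 349 ± 5.86 TPM on Matrigel (SD, n = 2), 411 ± 24.6 on VN (n = 3) and 382 ± 19.1 on VNP2 (n = 3). SOX4 followed with a mean of 152 TPM over the 8 libraries, SOX11 with 121, SOX21 with 85.4, SOX1 with 60.7 and SOX9 with 54.3. SOX3 and SOX5 came next, at 22.3 and 21.9 TPM, and SOX8 was lowest at 4.77. SOX6 had 8.50 TPM, a partial value because only part of its transcripts could be matched. SOX3 was above SOX5 in some libraries and below it in others, so their order is not settled. The range of SOX4 overlapped that of SOX11, and the range of SOX1 overlapped that of SOX9, when all libraries were pooled, but SOX4 lay above SOX11 and SOX1 above SOX9 within every library. SOX2, SOX4 and SOX11 together made up 71.2 to 72.9% of the summed TPM of the 10 genes in each library.

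**Figure D1:**
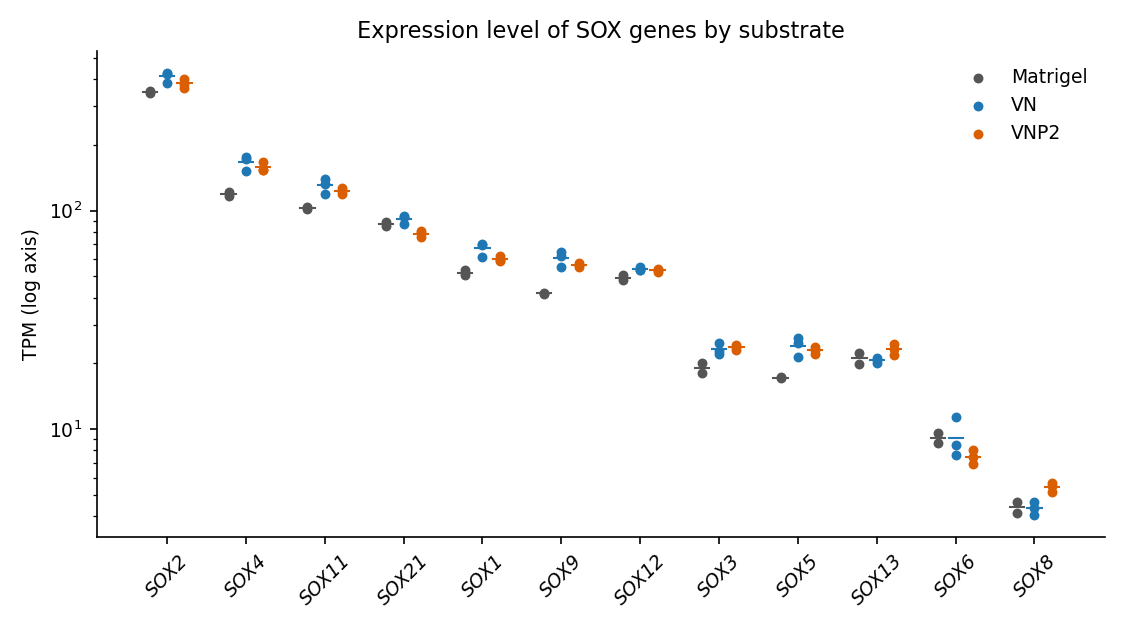
Level of 12 SOX genes in TPM on a log axis, each point 1 library and each short line the group mean, in grey for Matrigel, blue for VN and orange for VNP2. SOX2 lies highest, at 345 to 427 TPM, and SOX8 lowest, at 4.06 to 5.68 TPM. SOX12 and SOX13, which are not among the 10, are shown for scale.

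Differences between substrates were tested on counts, normalized for library size and transcript length, with a quasi-likelihood test in edgeR fitted to all 8 libraries, and a gene was called at a Benjamini-Hochberg adjusted p under 0.05 over all tested genes. Across the 3 substrates 6 of the 10 members were called (SOX1, SOX4, SOX5, SOX9, SOX11 and SOX21), against 19.3% of all tested genes. The 10 were chosen with earlier results of these data known, so this contrast is no test of the family. Of 5 other tested SOX genes, 0 were called. On VN, 5 of the 10 were higher than on Matrigel (SOX1, SOX4, SOX5, SOX9 and SOX11) and none was lower, where 15.3% of all genes were called, 5.66% as higher and 9.6% as lower. On VNP2, 5 were higher than on Matrigel (SOX3, SOX4, SOX5, SOX9 and SOX11) and SOX21 was lower, where 16.6% of all genes were called, 7.44% as higher and 9.13% as lower. All these counts and the medians below use the matched transcripts, in which SOX6 is partial. In the authors' own table of normalized counts SOX6 was also called lower on VNP2 (limma, adjusted p = 0.0197). Between VNP2 and VN only SOX21 was called, as lower on VNP2, where 5.1% of all genes were called, 3.09% as higher and 2.01% as lower.

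The members are abundant genes, in which calls are easier to make: among tested genes that averaged 250 normalized counts or more, 7.48% were called higher on VN and 9.05% higher on VNP2. All VN libraries lay above both Matrigel libraries for 7 of the 10 members, where the groups did not overlap for 44.4% of all genes, and for 21.1% in this direction. All VNP2 libraries lay above Matrigel for 7 members and below it for 2, where 48.1% of all genes did not overlap, 23% higher and 25.1% lower. Between VNP2 and VN the groups did not overlap for SOX8, higher on VNP2, and SOX21, lower on VNP2, against 23.6% of all genes (12.7% higher and 10.9% lower). The median log2 fold change of the 10 was 0.23 on VN and 0.22 on VNP2, against medians near 0 (0.0044 and 0.0024) for all tested genes. Both contrasts use the same Matrigel libraries, so their likeness is not independent evidence.

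**Figure D2:**
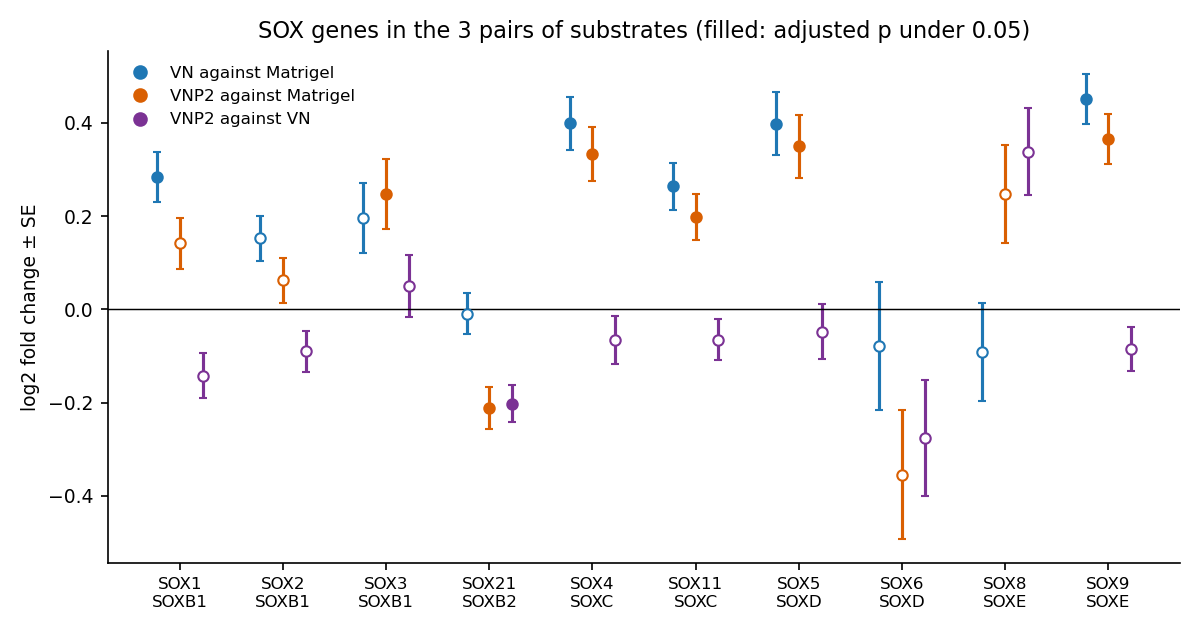
Log2 fold change of the 10 SOX genes with its standard error in the 3 pairs of substrates, grouped by SOX subfamily, with filled points for genes called at an adjusted p under 0.05. SOX9 shows the highest rise on VN (0.45), the SOXC genes and SOX5 rise on both coatings, and SOX21 is called in both contrasts that involve VNP2.

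Among the SOXB1 genes, whose products keep neural progenitors from differentiating, the differences were small, and only SOX1 was called on VN. SOX1 (ENSG00000182968, chr13:112067647-112070488) had 4291 and 4035 normalized counts on Matrigel, 4728, 5274 and 5201 on VN, against 4519, 4754 and 4506 on VNP2. Both groups lay wholly above Matrigel, and VN replicates 2 and 3 were the highest libraries. The log2 fold change was 0.28 (SE 0.0543) on VN, with an adjusted p of 0.00631 in edgeR, and 0.14 (SE 0.0542) on VNP2, where the adjusted p was 0.110. The call on VN was lost without Matrigel replicate 3 (adjusted p = 0.0785 in edgeR).

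SOX2, the SOXB1 factor also central to pluripotency, had 17910.3 and 17368 normalized counts on Matrigel, 18605, 20041 and 20172 on VN, against 17626, 19407 and 18222 on VNP2 (ENSG00000181449, chr3:181711924-181714436). The VN libraries lay above Matrigel, whereas VNP2 replicate 1 fell between the Matrigel libraries. The log2 fold change on VN was 0.15, with a 95% interval from 0.045 to 0.26 and an adjusted p of 0.0603 in edgeR. SOX2 is thus at the border of a call: without VN replicate 1 the adjusted p in edgeR was 0.0117, and with DESeq2 it was 0.0147. On VNP2 the interval of the log2 fold change ran from −0.045 to 0.17, around 0.06. SOX2 lies inside the span of SOX2-OT, a noncoding gene on the same strand, so a part of the signal could be shared between them.

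SOX3, the X-linked SOXB1 gene (ENSG00000134595, chrX:140502985-140505116), was the least abundant of the group, with 688 and 615 normalized counts on Matrigel. It had 747, 705 and 788 on VN and 796, 779 and 746 on VNP2, so that neither group overlapped Matrigel. Its log2 fold change was 0.25 (SE 0.0753) on VNP2, with an adjusted p of 0.0484 in edgeR, and 0.20 (SE 0.0756) on VN, with an adjusted p of 0.110. The call on VNP2 was lost when any of the Matrigel or VNP2 libraries was left out (adjusted p = 0.0563 to 0.324 in edgeR).

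Between VNP2 and VN the groups did not overlap for SOX8 and SOX21, but only SOX21 was called. This SOXB2 repressor (ENSG00000125285, chr13:94709622-94712399, minus strand) had 3873 and 3705 normalized counts on Matrigel and 3637, 3815 and 3841 on VN, and these groups overlapped. On VNP2 it had 3179.8, 3371 and 3265 normalized counts, below every library of both other groups. The log2 fold change was −0.21 (SE 0.0441) against Matrigel and −0.20 (SE 0.0396) against VN, which is a level 13.6% and 13.1% lower (adjusted p = 0.00806 and 0.0149 in edgeR). Against VN the call was lost without VN replicate 2, VN replicate 3, VNP2 replicate 1 or VNP2 replicate 3 (adjusted p = 0.0599 to 0.0713 in edgeR), and against Matrigel without Matrigel replicate 2 (0.105). Between VN and Matrigel the log2 fold change was −0.01, with a 95% interval from −0.11 to 0.089.

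SOX21 shares its upstream region with a noncoding gene on the other strand, SOX21-AS1. The RefSeq starts of the pair lie back to back on chromosome 13 (GRCh38.p14), with 170 bases between them at chr13:94712546-94712715. The stretch is shown because both transcripts start at its ends. It is read on the plus strand, so SOX21 runs to the left of it and SOX21-AS1 to the right, and capitals mark its only TATA box motif, spelled TATAAA and searched on both strands.
SOX21 to SOX21-AS1: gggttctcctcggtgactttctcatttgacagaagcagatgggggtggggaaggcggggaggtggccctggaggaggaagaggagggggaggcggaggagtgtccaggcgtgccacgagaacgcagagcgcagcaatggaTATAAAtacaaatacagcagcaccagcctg

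The motif begins 30 bases before the SOX21-AS1 start, and 11.5% of all RefSeq promoter windows of 300 bases hold it. In the windows of the same length around the SOX21 and SOX21-AS1 starts, ACAAT, the core that SOX proteins bind, was found 0 times and CCAAT 1 time each on both strands together, where 27.4% and 34.6% of all windows hold these letters. SOX21-AS1 had 1509 and 1582 normalized counts on Matrigel, 1576, 1778 and 1679.6 on VN, against 1386, 1494 and 1490.1 on VNP2. Its VNP2 libraries lay below every library of both other groups, as those of SOX21 did, but against VN the log2 fold change of −0.20 (SE 0.0562) had an adjusted p of 0.0701 in edgeR and was not called. Without VN replicate 1 it was called (adjusted p = 0.0202 in edgeR).

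The SOXC genes SOX4 and SOX11, which in neural cells act on early neuronal genes, rose on both coatings, whereas SOX12 of the same group was not called. SOX4 (ENSG00000124766, chr6:21592768-21598619) had 11632 and 11091 normalized counts on Matrigel, 13931, 15392 and 15616.5 on VN, against 13878, 15189.9 and 13876 on VNP2. Every VN and VNP2 library was above both Matrigel libraries by more than the spread within any group. The log2 fold change was 0.40 (SE 0.0575) on VN and 0.33 (SE 0.0574) on VNP2, which is 31.8% and 26% more (adjusted p = 0.00116 and 0.00270 in edgeR), and neither call was lost when any library was left out. SOX11 (ENSG00000176887, chr2:5692667-5701385) had 16718 and 16271 normalized counts on Matrigel, 18508, 19933 and 20965 on VN, against 18409, 19500.1 and 18874.5 on VNP2, again without overlap. Its log2 fold change was 0.26 (SE 0.0498) on VN and 0.20 (SE 0.0497) on VNP2 (adjusted p = 0.00585 and 0.0206 in edgeR). The call for SOX11 was lost on VN without Matrigel replicate 3 (adjusted p = 0.0648 in edgeR), and on VNP2 without Matrigel replicate 2, Matrigel replicate 3, VNP2 replicate 2 or VNP2 replicate 3 (0.0531 to 0.148).

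Of the SOXD genes, which act as dimers, SOX5 rose on both coatings, and SOX6 was lower on VNP2 in one of its tables. SOX5 (ENSG00000134532, chr12:23529500-24562544, minus strand) had 1915 and 1911 normalized counts on Matrigel, 2288, 2567 and 2708 on VN, against 2445, 2353 and 2519 on VNP2. The groups on VN and VNP2 lay wholly above Matrigel. The log2 fold change was 0.40 (SE 0.0675) on VN and 0.35 (SE 0.0676) on VNP2 (adjusted p = 0.00326 and 0.00515 in edgeR), and both calls held when each library was left out in turn. One of its 21 annotated transcripts, SOX5-207, held 67.2 to 77.2% of the SOX5 TPM in each library. SOX5-207 starts inside the gene, at chr12:23949703, and ends at position 23532352, whereas SOX5-206, which starts at the far end of the gene, held 0 to 7.55%. The level of SOX5-207 was 12.4 and 12.8 TPM on Matrigel, 16.1, 18.7 and 19.2 on VN, against 15.4, 17.1 and 17.4 on VNP2, and here too neither group overlapped Matrigel.

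SOX6 (ENSG00000110693, chr11:15966449-16739591, minus strand) had to be read from the authors' own table of normalized counts per gene. The transcripts that could be matched to the annotation used here held 0.476 to 0.591 of the SOX6 value in that table, depending on the library, whereas for the other members both tables differed by at most 0.566%. In the authors' table SOX6 had 1986 and 2036 on Matrigel, 1674, 1854 and 2061 on VN, against 1679, 1666 and 1577 on VNP2. The VNP2 libraries were below both Matrigel libraries, and the VN libraries spread over the whole range. A limma test on the log2 of that table (pseudocount 1) gave a log2 fold change of −0.29 (SE 0.0753) on VNP2, with an adjusted p of 0.0197, and of −0.12 (SE 0.0753) on VN, with an adjusted p of 0.329. Summed from the matched transcripts, SOX6 had 989 and 1095 on Matrigel, 837, 908 and 1217 on VN, against 882.5, 812 and 751 on VNP2. There the log2 fold change on VNP2 was −0.36 (SE 0.138), with an adjusted p of 0.116 in edgeR. In both tables every VNP2 library lay below both Matrigel libraries. In the matched sum the call depended on the fit, since it was made without the filter on low counts (adjusted p = 0.0243 in edgeR), with the libraries of the pair alone (0.0166) and without VN replicate 3 (0.018).

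**Figure D3:**
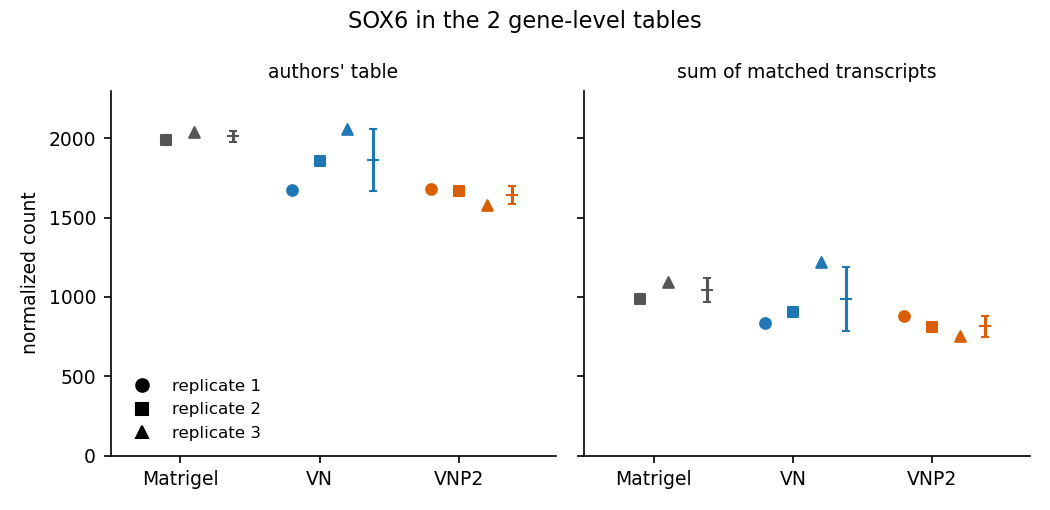
Normalized counts of SOX6 by library in the authors' table and in the sum of matched transcripts, on the same axis from 0, with the group mean ± SD beside the points. In both panels the VNP2 libraries lie below the Matrigel libraries, and the matched sum holds 0.516 of the counts of the authors' table.

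Of the SOXE genes, SOX9 rose on both coatings and SOX8 was not called. SOX9, which starts gliogenesis in the neural tube and cartilage formation elsewhere (ENSG00000125398, chr17:72121020-72126420), had 3179 and 3129.8 normalized counts on Matrigel. It had 4005, 4381 and 4552 on VN and 3999, 4156 and 4039 on VNP2, and neither group overlapped Matrigel. The log2 fold change was 0.45 (SE 0.0534) on VN and 0.37 (SE 0.0534) on VNP2, which is 36.7% and 28.9% more (adjusted p = 0.000308 and 0.000945 in edgeR). SOX9 had the smallest p of the 10 genes across the substrates, and its calls against Matrigel held in every alternative and with each library left out. Between VNP2 and VN the log2 difference was −0.09, with a 95% interval from −0.19 to 0.018, but without VN replicate 1 it was −0.13 and called (adjusted p = 0.0371 in edgeR).

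SOX8, a SOXE factor that partly stands in for SOX9 and SOX10 in glia (ENSG00000005513, chr16:981808-986979), was the least abundant member. It had 291 and 259 normalized counts on Matrigel, 281, 256 and 238 on VN, against 341, 309 and 329 on VNP2. The VNP2 libraries were the 3 highest, and the VN libraries overlapped those from Matrigel. Against VN the log2 fold change on VNP2 was 0.34 (SE 0.0935) with an adjusted p of 0.0710 in edgeR, and against Matrigel it was 0.25 (SE 0.105) with 0.148, so SOX8 was not called. Without VN replicate 1 the difference from VN was called (adjusted p = 0.0309 in edgeR).

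**Figure D4:**
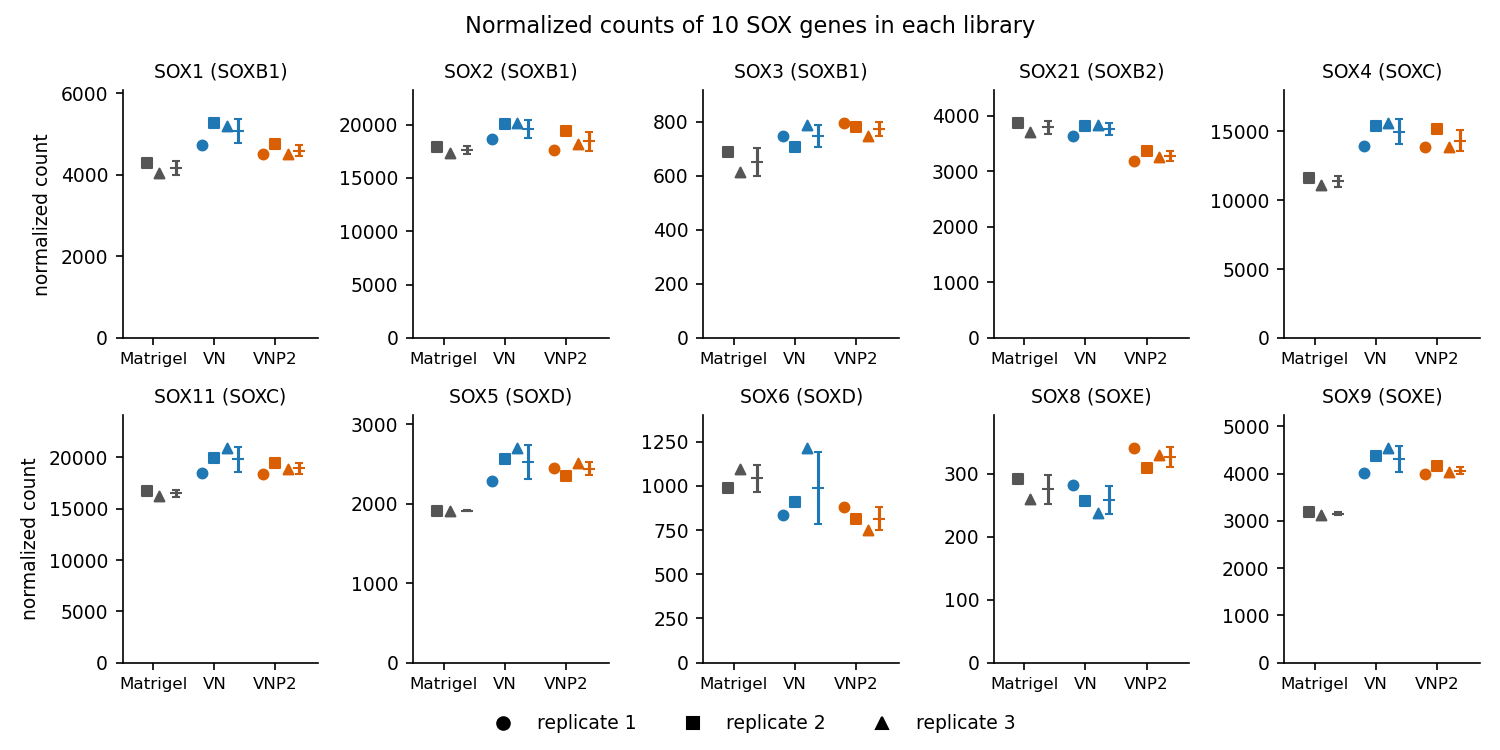
Normalized counts of the 10 SOX genes in each library, with symbols for the replicate number, bars for the group mean ± SD and axes that start at 0. VN and VNP2 lie above Matrigel for SOX1, SOX3, SOX4, SOX5, SOX9 and SOX11, and VNP2 lies below both other groups for SOX21.

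The pattern of SOX9 over the 8 libraries was most closely matched, among 12981 genes outside the family averaging 100 normalized counts or more, by TMSB15B (Pearson r = 0.987 of log2 normalized counts), TET3 (0.985), ACVR2B (0.985), INSM1 (0.983) and ZBTB8B (0.982). These correlations describe 8 libraries that differ mainly by substrate, and the points share their normalization. INSM1, a zinc-finger factor of newborn neurons and neuroendocrine cells, rose furthest of the 5, from a mean of 905 normalized counts on Matrigel to 1544 on VN and 1406 on VNP2. TET3, which oxidizes methylated cytosine, rose by far less, with log2 fold changes of 0.16 and 0.14.

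Of the 9 other SOX genes examined, 5 passed the filter on low counts and none was called in any pair. Of all tested genes, 15.3% were called on VN, 16.6% on VNP2 and 5.1% between VNP2 and VN. SOX12, the third SOXC gene, had 4834.5 and 4526 normalized counts on Matrigel, 5046, 4757 and 4727 on VN, against 4917, 4731 and 4814 on VNP2. Its groups overlapped in every pair. SOX13, the third SOXD gene, had 1545 and 1722 normalized counts on Matrigel, 1498, 1506.5 and 1537 on VN, against 1615, 1717 and 1811 on VNP2. Its VNP2 libraries lay above all VN libraries, with a log2 fold change of 0.18 (SE 0.0570) and an adjusted p of 0.111 in edgeR. SOX7, an endothelial and endodermal factor, had between 35.3 and 60.5 normalized counts, and SOX15 and SOX30 had at most 20.7. SOX14, SOX17 and SOX18 had between 0 and 4 counts in every library.

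Of 6 noncoding genes at SOX loci 4 were tested, and 1 of them (SOX9-AS1) was called on each coating in the matched sums. The called shares of all tested genes were 15.3% on VN and 16.6% on VNP2. SOX1-OT and SOX9-AS1 were read from the authors' table, because the matched transcripts held 0.516 and 0.180 of their values there. SOX1-OT had 164 and 175 on Matrigel, 234, 261 and 265 on VN, against 228, 227 and 232 on VNP2 in that table. The VN and VNP2 libraries were all above Matrigel, with log2 fold changes of 0.58 and 0.44 (limma, adjusted p = 0.00312 and 0.0128), whereas in the sum of matched transcripts SOX1-OT was not called (edgeR, adjusted p = 0.138 and 0.457). SOX9-AS1 had 48.8 and 62.5 on Matrigel, 85.4, 91.6 and 94.6 on VN, against 105, 76.5 and 84.8 on VNP2, and was higher on both (limma, log2 fold changes of 0.70 and 0.66, adjusted p = 0.0249 and 0.0295). The matched sum of SOX9-AS1 was called too, though on VNP2 the call was lost in 2 of 9 alternatives that kept every library. It rested on 1 to 26 counts in a library. That call was lost on VN without Matrigel replicate 2, Matrigel replicate 3 or VN replicate 3, and on VNP2 without either Matrigel replicate, VNP2 replicate 1 or VNP2 replicate 2 (edgeR, adjusted p of SOX9-AS1 up to 0.17 and 0.217). SOX9-AS1 spans SOX9 on the other strand, and whether the counting used strand is not given in the sources used here, so that reads of the pair might not be told apart. SOX2-OT was not called in either table.

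Because SOX proteins act with partners, 18 partner factors were examined, of which 16 were tested, all but PAX6 and PAX3. This list and those below were chosen with earlier results of these data known, so setting them against all tested genes is no test of the lists. On VN, 8 were higher and 1 was lower than on Matrigel, with a median log2 fold change of 0.28, where 5.66% of all tested genes were higher and 9.6% lower. On VNP2 9 were higher and 2 lower, with a median of 0.25, where 7.44% of all genes were higher and 9.13% lower. POU3F1, a class III POU factor that pairs with SOX2 and SOX10, had 356 and 364 normalized counts on Matrigel, 482, 535 and 547 on VN, against 562, 634 and 581 on VNP2. Its log2 fold change was 0.53 on VN and 0.72 on VNP2 (edgeR, adjusted p = 0.00264 and 0.000264). Among its paralogs, POU3F2 and POU3F4 rose on VNP2 (0.27 and 0.43) and POU3F3 on VN (0.29). NFIA, which acts with SOX9 at the onset of gliogenesis, rose by 0.41 on both coatings (edgeR, adjusted p = 0.0195 and 0.0176). OLIG1, OLIG2 and CHD7, a chromatin remodeler that works with SOX2 and SOX10, were also higher on both, and NFIB and TCF4 on VN. NKX2-2 and NFIX were higher on VNP2. Except for those of POU3F1 and POU3F4, and that of OLIG1 on VNP2, the calls of these risen partners depended on single libraries. Without Matrigel replicate 2 or Matrigel replicate 3, or both in turn, each risen partner other than POU3F1 and POU3F4 lost a call, OLIG1 only on VN. CHD7 was also lost on VN without VN replicate 2 or 3 and on VNP2 without VNP2 replicate 1 or 3, NFIA on VN without VN replicate 2 and on VNP2 without VNP2 replicate 2 or 3, TCF4 without VN replicate 3, and NFIX without VNP2 replicate 2 and in DESeq2. GLI2, the activator of Sonic hedgehog target genes, fell from 995 and 1066 normalized counts to between 443 and 636 on VN and VNP2, with log2 fold changes of −0.78 and −0.99 (edgeR, adjusted p = 0.00116 and 0.000180). POU5F1, the partner of SOX2 in pluripotent cells, was lower on VNP2 than on Matrigel (−1.26) and than on VN (−1.56).

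Genes linked to SOXB1 factors in neural progenitors did not move one way. Of 12 tested, 5 fell and 2 rose on VN, and 4 fell and 3 rose on VNP2, with medians of −0.09 and −0.19, where 15.3% and 16.6% of all tested genes were called. NES, the intermediate filament nestin, fell by 0.28 on VN and by 0.33 on VNP2 on the log2 scale, VIM (vimentin) by 0.46 and by 0.24, and CCND1 (cyclin D1) by 0.40 and by 0.51. FGFR2, an FGF receptor of neural progenitors, rose by 0.36 on VN and 0.76 on VNP2, and was also higher on VNP2 than on VN (0.40; edgeR, adjusted p = 0.000760). HES5, a Notch effector, rose on VN (0.62), and FABP7, a radial glial fatty acid binding protein, on VNP2 (0.41). EGFR moved by −0.25 on VN but by 0.26 on VNP2 on the log2 scale (edgeR, adjusted p = 0.0469 and 0.0355), but the call on VN was lost in 7 of 10 alternatives that kept every library and in 7 of 8 fits with a library left out, all but that without VN replicate 2 (adjusted p up to 0.256). The EGFR call on VNP2 was lost in 2 of 10 alternatives and without either Matrigel replicate, VNP2 replicate 1 or VNP2 replicate 2 (adjusted p up to 0.216). Between VNP2 and VN the EGFR difference of 0.50 was called in every fit run. NOTCH1 could not be judged, as the matched transcripts gave a share of 0.00818 of the authors' value, but it remains among the 12 and in both medians.

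Of 12 genes linked to SOXC factors, 4 rose and 1 fell on VN, and 7 rose and 1 fell on VNP2, with medians of 0.16 and 0.17. Of all tested genes, 5.66% rose and 9.6% fell on VN, and 7.44% rose and 9.13% fell on VNP2. DCX, the doublecortin of migrating neuroblasts, had 8405 and 8685 normalized counts on Matrigel, 11912, 12511 and 12375 on VN, against 13394, 14182 and 14663 on VNP2. Its log2 fold change was 0.52 on VN and 0.72 on VNP2, and the rise from VN to VNP2 was called as well (0.20; edgeR, adjusted p = 0.0141), though not without VNP2 replicate 2 or 3 (up to 0.0646) or without length offsets (0.0786). STMN2, a neuronal microtubule regulator, rose by 0.50 and 0.72, and STMN1 and TEAD2 were higher on both, but without Matrigel replicate 3 the calls of TEAD2 on both coatings and of STMN1 on VNP2 were lost (edgeR, adjusted p up to 0.112). TUBB3, a frequently used readout of SOX4 and SOX11 activity, had between 20366 and 23674 normalized counts in the 8 libraries, with overlapping groups, and was not called. MARCKSL1, PROX1 and NEUROD1 also rose on VNP2 (0.17, 0.49 and 1.37), but each call was lost in at least 1 fit with a library left out. NEUROD1, with means of 9.44 normalized counts on Matrigel and 24.7 on VNP2, was also lost in 2 of 9 alternatives that kept every library. SEMA3C, a secreted guidance cue, fell on both coatings (−0.60 and −1.26).

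Of 11 tested genes linked to SOX9 in cartilage, 1 rose and 2 fell on each coating, where 15.3% and 16.6% of all tested genes were called on VN and VNP2. SOX6, among the 11, was counted here from its matched sum, in which it was not called. The one that rose was SOX5, and those that fell were COL11A1, a minor fibrillar collagen (−0.65 on VN and −1.09 on VNP2), and MATN3, matrilin 3 (−0.96 and −0.98). COL2A1, the collagen whose enhancer SOX9 binds in chondrocytes, had 20219.8 and 20179.9 normalized counts on Matrigel, 17842 to 19396 on VN and 19930.8 to 20712 on VNP2 and was not called against Matrigel. Of 7 tested genes linked to SOX9 and NFIA in gliogenesis, NFIA rose and FGFR3 fell on both coatings, and APCDD1 and SLC1A3, a glial glutamate transporter, rose on VNP2 (0.73 and 0.28). The SLC1A3 call was lost without Matrigel replicate 2, Matrigel replicate 3, VNP2 replicate 1 or VNP2 replicate 3 (edgeR, adjusted p = 0.0846 to 0.15), and that of FGFR3 on VN without either Matrigel replicate or VN replicate 2 (0.0599 to 0.136). Of 10 tested genes linked to SOXE factors in oligodendrocytes, only MYRF, the myelin gene regulator, was called on VN, as lower (−0.87). On VNP2, PDGFRA (0.33) and CSPG4 (0.66), which mark progenitors, were higher, and MYRF (−0.68) and MBP, a myelin protein (−0.41), were lower. The MBP call was lost without Matrigel replicate 2, Matrigel replicate 3, VN replicate 2, VNP2 replicate 1 or VNP2 replicate 3 (edgeR, adjusted p = 0.057 to 0.241), with the replicate block (0.0745) and with the libraries of the pair alone (0.0554). Without Matrigel replicate 2 the calls of MYRF, PDGFRA and CSPG4 on VNP2 were lost as well (0.0575 to 0.0847).

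**Figure D5:**
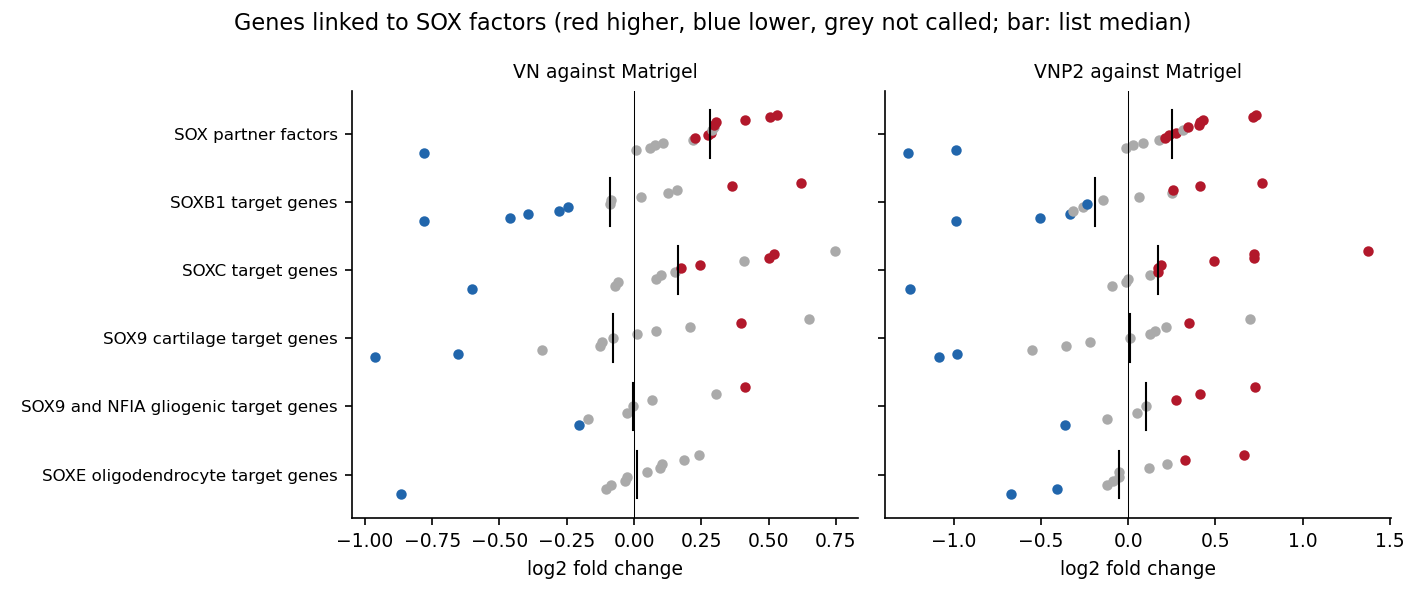
Log2 fold change on VN and on VNP2 against Matrigel of the tested genes of 6 lists linked to SOX factors, with called genes in red (higher) or blue (lower), others in grey and a bar for the list median. The medians of the partner factors (0.28 and 0.25) and of the SOXC-linked genes (0.16 and 0.17) lie to the right of 0, and the SOXB1-linked genes lie on both sides.

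Markers of the cell types that such a culture can hold were examined beside the SOX genes, where 5.66% of all tested genes were called higher and 9.6% lower on VN, and 7.44% and 9.13% on VNP2. The summed TPM of 7 OPC markers was 215 to 217 on Matrigel, 282 to 296 on VN and 310 to 334 on VNP2, and 3 of 6 tested markers were called higher on VN and 6 on VNP2. The sum of 7 neuron markers was 888 to 923 on Matrigel, 1010 to 1050 on VN and 1052 to 1066 on VNP2, with 4 of 7 called higher on each coating. Neural progenitor markers (6 genes) summed to 3222 to 3306 TPM on Matrigel, 2629 to 2712 on VN and 2935 to 3005 on VNP2, where 2 of 5 tested were lower on each coating, and 2 were higher on VN and 1 on VNP2. Mesenchymal markers summed to 504 to 515, 574 to 610 and 493 to 527 TPM, with 3 of 7 called as higher and 2 as lower for VN, and 5 and 2 for VNP2. Neural crest markers summed to 32.9 to 34.1, 15.8 to 18.2 and 21.4 to 23.2 TPM. Of 5 tested, ETS1 was called lower on both coatings, and TFAP2A higher on VNP2, though not without Matrigel replicate 2. The sum was lower although 3 of the 5 had positive log2 fold changes on VN (median 0.097) and 4 on VNP2 (median 0.29). PAX3 was at 0 in 6 of 8 libraries. Pluripotent stem cell markers summed to 92.5 to 97.4, 83.1 to 85.0 and 76.5 to 79.9 TPM, with 1 of 6 called on VN, as lower, and 4 on VNP2, 3 of them as lower. Astrocyte markers summed to 5.45 to 7.42 TPM over all libraries, with none of 3 tested called and GFAP at no more than 9.39 normalized counts. Several of these markers also belong to the lists above (DCX, STMN2 and TUBB3 among the SOXC-linked genes, NES, VIM, FABP7 and HES5 among the SOXB1-linked genes), and GLI2 is both a partner factor and a SOXB1-linked gene. Beside the losses given above, the calls of MSI1, MAP2, SYN1 and PRRX1 on VN were lost in at least 1 fit with a library left out. On VNP2 the same held for SYN1, ELAVL3, DCN, LUM, TWIST1, TDGF1 and DPPA4. The part that changes in cell types had in the SOX differences was not tested.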

How the data were processed

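Polyadenylated RNA of 8 libraries was analysed, grouped by the coating named in the labels. The authors trimmed reads with Trim Galore and quantified them with Salmon on GENCODE v32 transcripts, and deposited estimated counts, TPM and effective lengths (other) per transcript. The authors also deposited a gene table of normalized counts (a signal) made with tximport and DESeq2 1.27.12. Those estimated counts were here summed per gene through GENCODE v29, which matched 205225 of 226608 transcripts and 98.8 to 98.9% of the counts, rounded, filtered with filterByExpr (minimum count 10, minimum total 15) and fitted in edgeR 4.0.16 (R 4.3.3) with TMM normalization, length offsets, all 8 libraries and no replicate block. Tests were quasi-likelihood tests, two-sided, adjusted by Benjamini-Hochberg over 18201 genes. SE values were taken from the log2 fold change and its F statistic. limma 3.58.1 was applied to the log2 of the authors' table. The effect of the alternatives (DESeq2 1.42.0, RLE normalization, no length offsets, other filters, a replicate block, only the libraries of a pair, limma on the authors' table, and each library left out) is given at the end. The functions were tested on simulated data.

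The SOX members and all gene lists were chosen with earlier results of these data known. Named genes are the 10 members, other SOX genes, noncoding genes at SOX loci, genes of the lists that were called in a pair, and the 5 genes most correlated with the member of smallest p. PTPRZ1, TUBB3, COL2A1, GFAP, PAX3 and NOTCH1 were named after their values were seen, and PAX6 because it was not tested. Promoter windows are from RefSeq (GRCh38.p14). Protein sequences were not used here.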

Additional observations from a re-analysis of the deposited data

Results flagged for a closer look

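The change of SOX21 from Matrigel differed between the coatings: the log2 difference between VNP2 and VN was −0.20 (SE 0.0396), tested directly in edgeR (adjusted p = 0.0149), and the level was lower in 3 of 3 VNP2 libraries than in every VN library. SOX21 was the only one of the 10 members for which this test passed. No group was large enough for a test of single outlying libraries.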

How the results depend on the processing

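Of the 10 SOX members, 6 were called across the substrates, 5 on VN, 6 on VNP2 and 1 between VNP2 and VN, and these counts stayed within 1.5 times under all alternatives that kept every library (6 to 8, 5 to 6, 5 to 8 and 1). With each library left out in turn they ranged from 3 to 8, from 3 to 6, from 3 to 7 and from 0 to 4. The low counts came without Matrigel replicate 3 (3 across the substrates and 3 on VN) and without Matrigel replicate 2 (3 on VNP2); these fits leave 1 Matrigel library, whose spread is then assumed to be that of the other groups. Between VNP2 and VN the count was 4 without VN replicate 1, which added SOX1, SOX8 and SOX9, and 0 without VN replicate 2, VN replicate 3, VNP2 replicate 1 or VNP2 replicate 3. SOX4, SOX5 and SOX9 remained called against Matrigel in every fit run. SOX2 on VN was called in 5 of the 10 alternatives that kept every library, SOX3 on VNP2 was lost in 4, and SOX6 on VNP2 was called in 5, among them the 3 fits of limma on the authors' table.

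The near-zero change of SOX21 on VN turned its sign without length offsets (0.0032) and with the replicate block (0.013), and ranged from −0.04015 to 0.028 with libraries left out. The difference of SOX5 between VNP2 and VN ranged from −0.11 to 0.0049, that of SOX6 on VN from −0.26 to 0.031 and that of SOX8 on VN from −0.17 to 0.00053. None of these was called; the cause was not tested.

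Libraries with the same replicate number showed no shared deviation (correlations of −0.049 to 0.017, against −0.062 to 0.062 for different numbers). With 2 or 3 libraries in a group, this cannot exclude that libraries of the same number were handled together. With the replicate block 7 members were called across the substrates, 6 on VN, 6 on VNP2 and 1 between VNP2 and VN: SOX2 on VN and SOX1 on VNP2 were added, and SOX3 on VNP2 was lost.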
